A study of Mus musculus with 2 samples.

Results

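Acyl-CoA thioesterases (Acot) are the subject here, and 10 genes of the family were taken by symbol from the gene counts of mouse interscapular brown adipose tissue (iBAT): Acot1, Acot2, Acot3, Acot4, Acot5, Acot6, Acot8, Acot11, Acot12 and Acot13. They were 10 of the 27179 genes listed, and all 10 passed the minimum of 10 for the mean normalised count, as did 15212 genes in all, which are called the genes examined. The family was selected on the ratio between the same libraries that are described below, in which Acot5 was among the highest genes, so its ratios are a description of how it was chosen. Wild-type and Ucp1 knockout (Ucp1-KO) C57BL/6N mice, untreated, labelled male and 20 days old, were compared. For each genotype iBAT of 3 animals was pooled into 1 library, so there was no replicate and every difference is one between 2 libraries.

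Acyl-CoA thioesterases cut the thioester bond of an acyl-CoA and release the free acid and coenzyme A, the reverse of the step that acyl-CoA synthetases carry out. Acot1 to Acot6 are close relatives (type I enzymes) that work in different compartments, whereas Acot8, Acot11, Acot12 and Acot13 (type II) have another protein fold. In brown fat, which burns fatty acids to make heat through uncoupling protein 1 (UCP1) in mitochondria, these enzymes can set how much acyl-CoA, free fatty acid and free coenzyme A each compartment holds. Several family members are textbook targets of peroxisome proliferator-activated receptor alpha (PPAR-alpha), a nuclear receptor for fatty acids.

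The wild-type library held 52950913 counts and the Ucp1-KO library 53216727. Ucp1, the deleted gene, went from 366473 counts to 37853, which was 12.7% of the wild-type level after normalisation. Although both pools are labelled male, the 4 Y-linked genes checked (Ddx3y, Uty, Kdm5d and Eif2s3y) had 0 counts in the wild-type library and 5305 together in the Ucp1-KO library, and Xist, which is transcribed from the inactive X chromosome, had 32380 and 16478 counts. Sex and genotype therefore cannot be told apart in any value below. By 2-fold or more, 9.55% of all genes examined were lower in Ucp1-KO, and so were 20 of 20 skeletal muscle markers. They took 0.672% of wild-type counts and 0.0810% of Ucp1-KO counts, and none was at 0. The part of muscle and of sex in the differences was not tested. In bulk tissue, fewer cells of a type and less RNA per cell cannot be told apart.

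The 6 type I genes lie side by side on the plus strand of chromosome 12, within chr12:84034428-84158127 of GRCm39, a span of 123.7 kb. Over aligned bases with gaps left out, their coding sequences were 75.3% to 95.6% identical over the 15 pairs. The 30 pairs that involve a gene elsewhere were at 60.7% to 79.3%. Because gaps were left out, unlike sequences can reach high values. The longest identical run was 67 to 273 bases within the cluster and 8 to 14 bases in the other pairs. Of the 1227 aligned columns without gaps, 715 (58.3%) had the same base in all 6 genes. The window of 60 coding bases most alike among them is shown because its letters alone do not tell the genes apart, although a longer read would reach beyond it. It was identical in all 6 and lies at chr12:84034993-84035052 in Acot2, chr12:84056478-84056537 in Acot1, chr12:84085479-84085538 in Acot4, chr12:84100453-84100512 in Acot3, chr12:84116435-84116494 in Acot5 and chr12:84147940-84147999 in Acot6.
All 6 genes: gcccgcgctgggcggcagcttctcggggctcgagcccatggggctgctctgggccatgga

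The window with the fewest columns shared by all 6 genes is shown because it holds the most differences among them. Capitals mark the 48 columns that differ in at least 1 gene, and lower case the 12 that are the same in all. The windows are coding sequence on the plus strand of GRCm39 at chr12:84039384-84039443 (Acot2), chr12:84063662-84063721 (Acot1), chr12:84090073-84090132 (Acot4), chr12:84105303-84105362 (Acot3), chr12:84122186-84122245 (Acot5) and chr12:84155825-84155884 (Acot6).
Acot2: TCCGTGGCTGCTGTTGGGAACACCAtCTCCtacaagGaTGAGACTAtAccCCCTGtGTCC
Acot1: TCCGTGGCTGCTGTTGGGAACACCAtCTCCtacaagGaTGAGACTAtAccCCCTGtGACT
Acot4: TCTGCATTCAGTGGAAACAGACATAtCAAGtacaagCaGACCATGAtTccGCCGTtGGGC
Acot3: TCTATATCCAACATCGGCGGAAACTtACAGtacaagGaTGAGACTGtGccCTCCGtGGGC
Acot5: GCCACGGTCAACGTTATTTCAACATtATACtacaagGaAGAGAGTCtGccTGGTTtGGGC
Acot6: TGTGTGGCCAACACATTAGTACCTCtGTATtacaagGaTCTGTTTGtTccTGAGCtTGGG

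In this window Acot1 differed from Acot2 at 2 of 60 bases, while Acot3 differed from Acot2 at 26, Acot5 at 28, Acot4 at 34 and Acot6 at 36. Over whole mRNAs, 15.6% of the 100-base windows of Acot2 and 21.8% of those of Acot1 also occurred in another family member. The shares were 8.32% for Acot5, 5.71% for Acot3, 1.82% for Acot6 and 0.356% for Acot4, and 0 for Acot8, Acot11, Acot12 and Acot13. With windows of 150 bases the shares were lower, at 9.27% for Acot2, 12.3% for Acot1, 3.54% for Acot3, 3.36% for Acot5, 0.308% for Acot6 and 0 for Acot4. A further gene model, Gm49366, overlaps Acot4 and Acot3 and has no entry under that symbol among the genes counted. Its transcripts held 29.9% of the 100-base windows of Acot3 and 5.83% of those of Acot4. Windows in the stretch where the models overlap were not set apart from copies elsewhere. How reads that match several genes were counted is not given in the sources used here, so the division of counts among the cluster genes, above all between Acot1 and Acot2, is uncertain.

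Normalised counts are counts divided by a median-of-ratios size factor, and the log2 ratio is log2((Ucp1-KO + 0.5)/(wild-type + 0.5)) of normalised counts. Intervals in brackets are 95% intervals on read pairs, taken as counts divided by 2, and leave out any spread between animals. They are approximate where a count is odd. They also treat each pair as a separate molecule, which libraries with no molecular identifiers do not ensure. Of the 10 members, 7 were at least 2-fold higher in the Ucp1-KO library, where 7.42% of all genes examined were, and 1 was at least 2-fold lower, where 9.55% were. With the stricter demand that the whole interval lie beyond 2-fold, the members counted were again 7 and 1, against 2.72% and 3.72% of all genes examined. Because the family was selected on these ratios, nothing is read from those counts. The median log2 ratio was 2.56 over the members and -0.0016 over all genes examined.

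**Figure D1:**
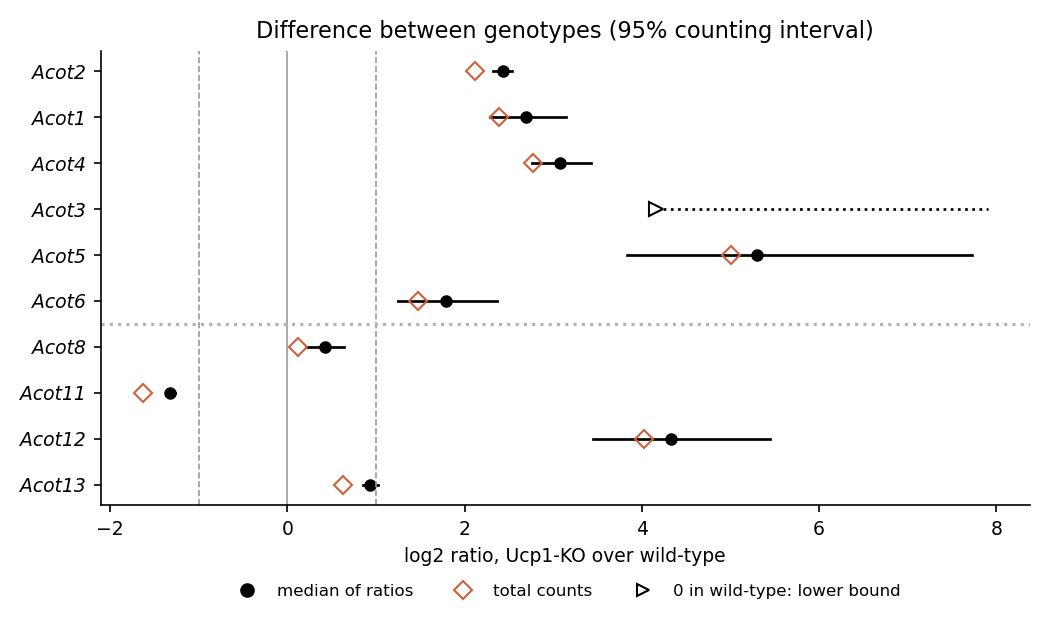
Log2 ratio of Ucp1-KO over wild-type for each of the 10 members, as filled points with exact 95% counting intervals on read pairs, beside the value after scaling to total counts (open diamonds), where dashed lines mark 2-fold. The 6 genes of the chromosome 12 cluster and Acot12 lie above 1, Acot11 lies at -1.32, and the open triangle for Acot3 is a lower bound because its wild-type count was 0.

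In the chromosome 12 cluster, all 6 genes had more counts in the Ucp1-KO library. Acot2 (gene 171210, chr12:84034428-84040647), the mitochondrial matrix enzyme for long-chain acyl-CoA, carried most of the cluster's counts. The wild-type library held 1628 counts of it [1518 to 1744] and the Ucp1-KO library 7124 [6892 to 7362], which gives a log2 ratio of 2.43 [2.32 to 2.54]. The Ucp1-KO library was thus 5.38-fold higher. Acot1 (gene 26897, chr12:84056256-84065145), its cytosolic counterpart, went from 111 counts [83.7 to 144] to 587 [522 to 658], and its log2 ratio was 2.70 [2.28 to 3.14]. Acot2 was thus far more abundant than Acot1, while the interval of its ratio lay within that of Acot1.

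The other 4 cluster genes encode peroxisomal enzymes. Acot4 (gene 171282, chr12:84085081-84095375), which prefers succinyl-CoA in mouse, went from 175 counts [140 to 216] to 1204 [1110 to 1304] and was 8.44-fold higher [6.76 to 10.7]. Acot3 (gene 171281, chr12:84098918-84107176), a long-chain enzyme, was at 0 in the wild-type library and at 87 counts [63.1 to 117] in the other. Against the 6 counts (3 read pairs) that a count of 0 allows, the observed 87 counts were at least 17.8-fold higher, and with the counting error of both libraries the interval of the fold began at 13.9. Acot5 (gene 217698, chr12:84116099-84122794), a medium-chain enzyme, went from 6 counts [1.24 to 17.5] to 209 [171 to 253]. Its log2 ratio of 5.30 ranked 44 from the highest of all genes examined, and the low wild-type count left an interval of 14.3-fold to 211-fold. With a pseudocount of 5 its log2 ratio was 4.51. Acot6 (gene 217700, chr12:84147428-84158127), which acts on branched-chain acyl-CoA, had the lowest ratio of the cluster, at 1.79 [1.25 to 2.37] on the log2 scale, from 76 counts [53.8 to 104] to 214 [175 to 259].

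The sum over the cluster went from 1996 counts to 9425, and its log2 ratio was 2.54 [2.44 to 2.64]. Without Acot2, the other 5 genes went from 368 counts to 2301, with a log2 ratio of 2.94 [2.72 to 3.18]. Acot2 made up 81.6% [79.0 to 83.9] of the cluster's wild-type counts and 75.6% [74.3 to 76.8] of its Ucp1-KO counts. The share of Acot4 went from 8.77% [7.09 to 10.7] to 12.8% [11.8 to 13.8] and that of Acot5 from 0.301% [0.062 to 0.876] to 2.22% [1.82 to 2.68], that of Acot3 from 0% [0 to 0.369] to 0.923% [0.670 to 1.24], whereas that of Acot6 went from 3.81% [2.71 to 5.19] to 2.27% [1.86 to 2.74]. The makeup of the cluster therefore differed between the libraries by more than counting error for Acot2, Acot4, Acot3 and Acot5, whose intervals did not overlap. Those of Acot6 overlapped narrowly, which does not show that its share was level. Its log2 ratio of 1.79 [1.25 to 2.37] lay wholly below that of the summed cluster.

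The protein-coding neighbours of the cluster did not share its ratio. Of the 10 flanking genes, 5 on each side, 0 were at least 2-fold higher and 1 was at least 2-fold lower. Over all genes examined the shares were 7.42% and 9.55%. The flanking genes had a median log2 ratio of 0.17. Dnal1, 2.93 kb beyond Acot6, had 459 and 404 counts and a log2 ratio of 0.12 [-0.16 to 0.39]. Riox1, on the other side, had the highest ratio of the 10 at 0.74 [0.37 to 1.11], and Papln the lowest at -2.09 [-2.38 to -1.81].

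**Figure D2:**
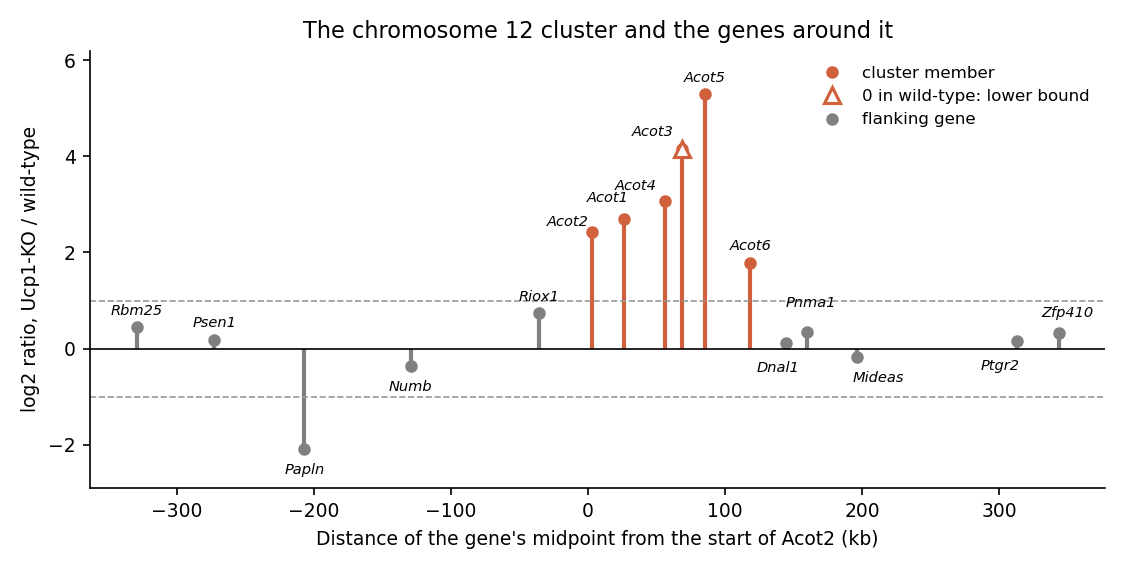
Log2 ratio of the 6 cluster genes and their 10 flanking protein-coding genes, plotted by the distance in kb of each gene's midpoint from the start of Acot2, where dashed lines mark 2-fold. The open triangle is the lower bound of Acot3 against 6 wild-type counts. The cluster genes lie at 1.79 or above and the flanking genes between -2.09 and 0.74.

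The 4 members elsewhere did not move as a group. Acot11 (gene 329910, chr4:106601752-106662195, minus strand), known as brown-fat-inducible thioesterase or Them1, was the only member at least 2-fold lower. Its 25618 wild-type counts [25176 to 26066] stood against 8324 Ucp1-KO counts [8073 to 8581], and the log2 ratio was -1.32 [-1.37 to -1.27]. Acot12 (gene 74156, chr13:91889396-91935688, plus strand), a cytosolic acetyl-CoA hydrolase best known from liver, went from 20 counts [9.59 to 36.8] to 334 [285 to 389]. It was 20.0-fold higher [10.9 to 43.7], a fold within the range of the cluster genes. Of 10 liver markers, 7 had 6 counts or fewer in both libraries, and Alb (albumin) was among them. The others were Cyp2e1 with 1680 and 1730 counts, Apoa2 with 21 and 41 and Apoa1 with 16 and 0. Whether liver tissue contributed to either library was not tested.

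Acot13 (gene 66834, chr13:24998351-25015547, minus strand), a small mitochondrial thioesterase also called Them2, went from 3508 counts [3346 to 3676] to 5464 [5261 to 5673]. Its log2 ratio of 0.94 [0.85 to 1.03] fell just short of the 2-fold rule, which its interval spans, while Acot6 at 1.79 was the nearest member above it, and on the lower side Acot11 lay beyond it at -1.32. Acot8 (gene 170789, chr2:164631348-164647353, minus strand), a peroxisomal enzyme with a broad range of substrates, had 692 [621 to 769] and 755 [681 to 835] counts and a log2 ratio of 0.43 [0.21 to 0.64]. Summed, the members elsewhere had a log2 ratio of -0.70 [-0.74 to -0.66], which rested on Acot11: without it the sum was 0.93 [0.86 to 1.01].

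Most genes near these members were close to 0. Over Acot8, the overlapping Snx21 and Zswim3 were both at -0.16, and Zswim1 was at -0.17. Over Acot13, the overlapping BC005537 and Tdp2 were at 0.26 and 0.12, and Gmnn was at 0.19. Ssbp3, beside Acot11, was at 0.25. There were 2 exceptions beyond 2-fold. Mroh7, 13.6 kb from Acot11, had 22 and 152 counts and a log2 ratio of 3.06 [2.17 to 4.15], opposite in sign to Acot11. Tnnc2, a fast-muscle troponin gene 9.46 kb from Acot8, had a log2 ratio of -2.76 [-2.87 to -2.65]. Beside Acot12, Ssbp2 stood at 0.05 [-0.15 to 0.24] and Zcchc9 at 0.91 [0.72 to 1.11].

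Levels can be set against each other only per length, here as normalised counts per kb of exon. That length joins the exons of all annotated transcripts of a gene. For Acot13 it is 1684 bases against 736 in the canonical mRNA, and for Acot11 it is 12307 against 5705. For Acot2 both are 2403 bases, so its level stands higher beside theirs than it would per canonical mRNA. In wild-type, Acot13 stood at 1878 [1791 to 1968] and Acot11 at 1876 [1844 to 1909], with overlapping intervals, followed by Acot2 at 611 [569 to 654] and Acot8 at 74.1. Acot1 at 25.5 [19.2 to 33.1] and Acot4 at 21.3 [17.1 to 26.3] did not differ beyond counting error. Acot6, Acot5 and Acot12 were at 10.7, 3.56 and 3.498, and Acot3 was at 0. These orders depend on the length used. Per kb of coding sequence Acot11 stood at 12958 and Acot13 at 7528, and Acot4 at 125 was above Acot1 at 79.6.

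In Ucp1-KO the order of these levels per kb was different. Acot13 was highest at 3600 [3466 to 3737], and Acot2 came next at 3289 [3182 to 3399], above Acot11 at 750 [728 to 774]. Acot4 at 181 [167 to 196], Acot1 at 166 [147 to 186] and Acot5 at 153 [125 to 185] had overlapping intervals. Per kb of coding sequence these were apart, at 1058, 518 and 184, and Acot5 then came after Acot8 at 873. Per kb of exon Acot8 followed at 99.6 [89.8 to 110], Acot12 at 71.9 [61.4 to 83.7], Acot6 at 37.0 [30.3 to 44.7] and Acot3 at 24.2 [17.6 to 32.6], of which the last pair overlapped.

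**Figure D3:**
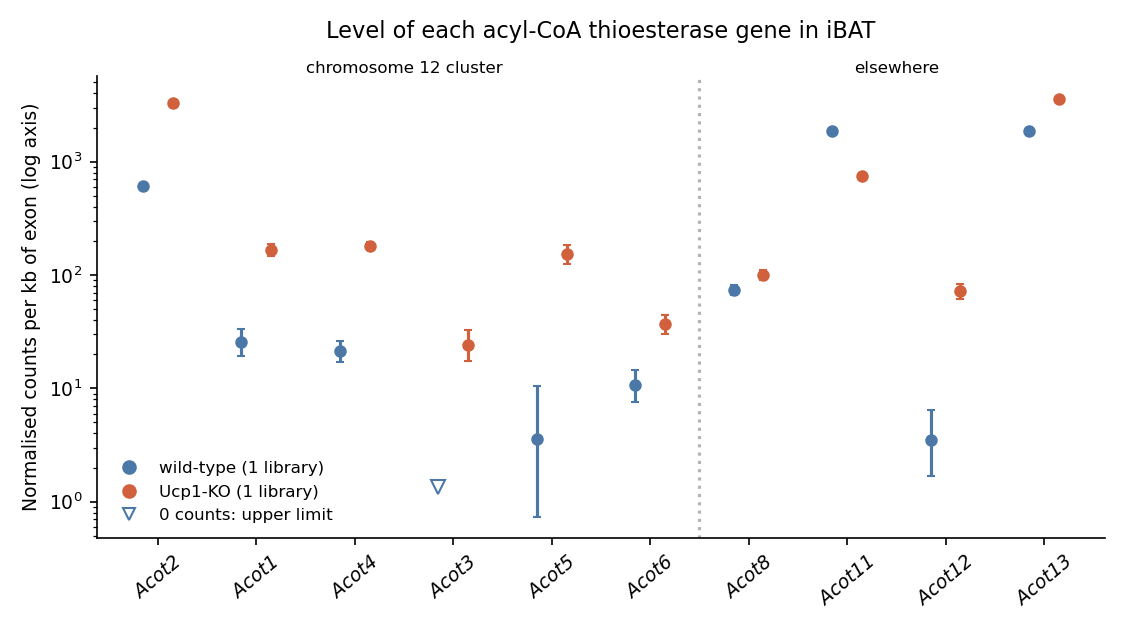
Normalised counts per kb of exon for each member in the wild-type and the Ucp1-KO library, on a log axis, with exact 95% counting intervals and an open triangle for the upper limit of Acot3, which had 0 wild-type counts. Acot13 and Acot11 lead in wild-type, and Acot13 and Acot2 in Ucp1-KO.

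Acot11 and Acot2 changed places in the family's makeup. As a share of the family's summed level per kb, Acot11 took 41.7% in wild-type and 8.96% in Ucp1-KO, and Acot2 took 13.6% and 39.3%. Acot13 held 41.7% and 43.0%. The 6 cluster genes together took 14.9% and 46.0%. The summed level per kb of exon went from 4503 to 8371, although the summed counts of the 10 genes were nearly level, with a log2 ratio of -0.09 [-0.12 to -0.06]. The size of that rise depends on the length used, and it was smaller per kb of coding sequence. Acot11, which has the most counts, also has the longest exon sequence, 12307 bases. With coding length in place of exon length, the share of Acot11 was 57.6% and 18.2%, that of Acot2 was 4.80% and 20.4%, that of Acot13 was 33.5% and 50.6%, and that of the cluster was 5.97% and 27.5%.

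**Figure D4:**
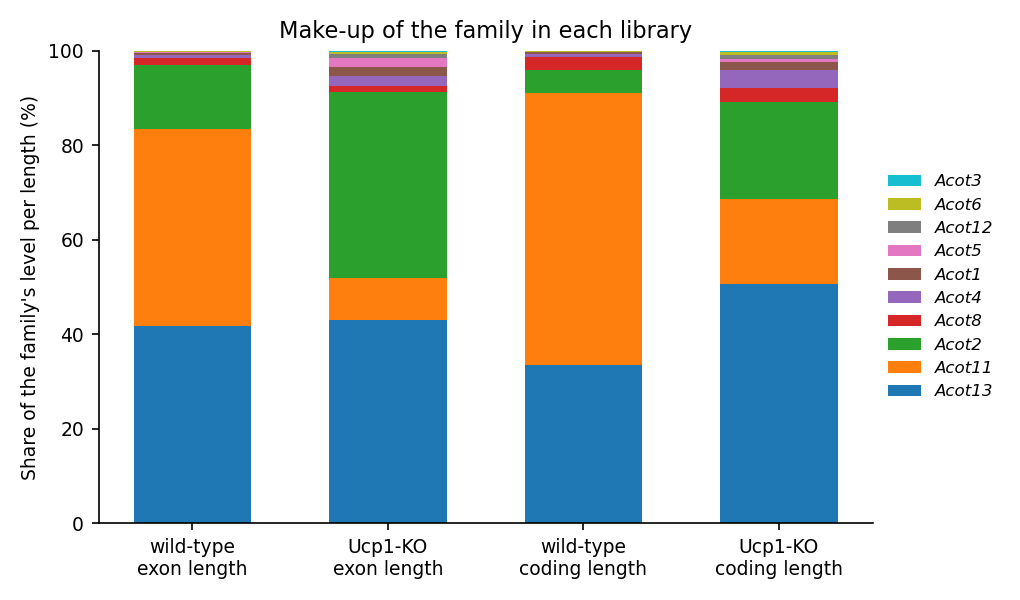
Share in percent of the family's summed level per length taken by each member in the wild-type and the Ucp1-KO library, with exon length in the left pair of bars and coding length in the right pair. By exon length Acot11 takes 41.7% of the wild-type bar and 8.96% of the Ucp1-KO bar, and Acot2 13.6% and 39.3%.

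The sequence before the transcription start is shown for Acot2, the most abundant cluster gene, for Acot5 and Acot12, the members with the largest ratios that had a count in both libraries, and for Acot11, the member that was lower. Each is the 250 bases before the start of the Ensembl canonical transcript in GENCODE release 39, 5′ to 3′ on the strand of the gene in GRCm39. They lie at chr12:84034178-84034427 (Acot2, plus), chr12:84115849-84116098 (Acot5, plus), chr13:91889335-91889584 (Acot12, plus) and chr4:106657060-106657309 (Acot11, minus). The annotated genes of Acot12 and Acot11 begin further upstream, at 91889396 and 106662195. The window of Acot12 therefore lies partly, and that of Acot11 wholly, inside the gene. Capitals mark AGGTCA, the hexamer that nuclear receptors of the PPAR and RXR group bind, TATAAA and CCAAT on either strand.
Acot2: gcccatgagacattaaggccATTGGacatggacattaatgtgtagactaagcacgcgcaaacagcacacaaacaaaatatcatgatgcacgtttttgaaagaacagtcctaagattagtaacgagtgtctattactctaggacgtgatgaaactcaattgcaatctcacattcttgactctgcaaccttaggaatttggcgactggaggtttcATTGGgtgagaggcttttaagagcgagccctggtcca
Acot5: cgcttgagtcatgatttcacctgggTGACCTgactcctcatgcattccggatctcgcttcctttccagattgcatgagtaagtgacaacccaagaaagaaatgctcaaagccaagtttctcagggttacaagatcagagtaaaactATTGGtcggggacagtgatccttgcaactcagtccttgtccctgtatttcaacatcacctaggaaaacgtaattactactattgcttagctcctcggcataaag
Acot12: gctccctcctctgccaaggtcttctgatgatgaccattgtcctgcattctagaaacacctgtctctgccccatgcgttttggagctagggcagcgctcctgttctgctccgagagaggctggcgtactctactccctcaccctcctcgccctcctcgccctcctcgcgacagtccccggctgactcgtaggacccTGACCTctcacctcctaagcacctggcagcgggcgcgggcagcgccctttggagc
Acot11: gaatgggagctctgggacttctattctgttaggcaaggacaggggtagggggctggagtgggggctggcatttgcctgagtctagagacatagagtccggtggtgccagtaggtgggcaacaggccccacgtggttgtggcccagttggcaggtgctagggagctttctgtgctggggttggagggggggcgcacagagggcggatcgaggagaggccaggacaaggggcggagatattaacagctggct

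The search ran from 250 bases before to 50 after the start of the canonical transcript, which is not the only annotated start of every gene. There AGGTCA on either strand occurred in 15.1% of 21751 protein-coding promoters and in Acot3, Acot5 and Acot12 among the members. Acot5 held it at -225 and at -2, Acot12 at -55 and Acot3 at 19, counted from the start. The looser direct repeat of AGGNCA with 1 base between the copies (DR1), the form that PPAR and RXR bind together, occurred in 0.405% of promoters and in 0 members. In the longer window from 2000 bases before the start it occurred in 3.44% of promoters and again in 0 members. TATAAA was in 13.2% of promoters and in Acot4 and Acot6, and CCAAT was in 39.9% and in 7 members, all 6 of the cluster and Acot8. The cluster promoters had 39.3% to 49.3% G and C against a median of 54.3% over all promoters, while those of Acot8, Acot11, Acot12 and Acot13 had 55.3%, 62.7%, 65.0% and 71.7%. These matches describe letters and not binding.

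Other thioesterases lay on both sides of 0. Of 12 listed, 8 were examined, and 6 of these were above 0. At least 2-fold higher was 1 and lower was 1, against 7.42% and 9.55% of all genes examined. The median log2 ratio of the other thioesterases was 0.22 and turned negative when libraries were scaled to total counts. Acot7, a cytosolic type II enzyme, had 749 and 748 counts and a log2 ratio of 0.30 [0.09 to 0.51]. Acot9, a mitochondrial enzyme, stood at 0.61 [0.53 to 0.69], and its retrocopy Acot10 had 6 and 3 counts. Fasn, the fatty acid synthase, whose last domain is a thioesterase, was at -2.11 [-2.13 to -2.09], and Them6 had 72 and 121 counts and a log2 ratio of 1.04 [0.43 to 1.69]. Hibch, which cuts 3-hydroxyisobutyryl-CoA in valine breakdown, was at 0.55, the lysosomal Ppt1 and Ppt2 at 0.07 and 0.14 and Them4 at -0.01. Baat, the bile acid conjugating enzyme, had 4 and 14 counts, and Them5 and Olah had 0 in both libraries.

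The acyl-CoA synthetases, which run the opposite step, were also on both sides of 0. Of 17 examined, 3 passed the 2-fold rule upward and 2 downward, where 7.42% and 9.55% of all genes examined did. The median of the synthetases was 0.25 and also turned negative with total counts. Slc27a2, a very-long-chain synthetase of peroxisomes and endoplasmic reticulum, had 3741 and 23261 counts and a log2 ratio of 2.94 [2.87 to 3.01], above that of the summed Acot cluster. Acss1, the mitochondrial acetyl-CoA synthetase, was at 1.15, Acss3 at -1.73 and Slc27a6 at -1.65 [-3.74 to -0.07]. Among 15 genes of coenzyme A synthesis, breakdown and transport, 1 was higher and 0 lower: Nudt8, a mitochondrial hydrolase of coenzyme A, at 1.36 [1.18 to 1.54]. Of 8 acyl-CoA and fatty acid binding genes examined, Fabp3 was higher at 1.72 and Fabp5 lower at -1.31.

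Genes of fatty acid oxidation, which draw on the same acyl-CoA, were mostly within 2-fold. Of 20 peroxisomal genes, 1 was at least 2-fold higher and 1 lower, where 7.42% and 9.55% of all genes examined were. Above 0 were 14 of the 20, and their median was 0.26. Scaled to total counts, this median and that of the mitochondrial genes below were just under 0. Ehhadh, the peroxisomal bifunctional enzyme, had 4884 and 16426 counts and a log2 ratio of 2.05 [1.98 to 2.12], and Pex11a, a peroxisome division factor, had 40 and 15 counts and a log2 ratio of -1.09 [-2.55 to 0.16], an interval that includes 0. Above 0 were 7592 of all 15212 genes examined and 17 of 18 mitochondrial genes, but 0 of these 18 were beyond 2-fold either way. Their median was 0.30 and the highest was Acadl, the long-chain acyl-CoA dehydrogenase, at 0.66 [0.63 to 0.68].

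Of 11 PPAR and partner genes examined, 3 passed the 2-fold rule upward and 0 downward, against 7.42% and 9.55% of all genes examined. Ppara, which encodes the receptor itself, had 12989 and 13218 counts and a log2 ratio of 0.32 [0.28 to 0.37], Pparg was at 0.25 and Ppard at -0.33. Ppargc1a, the coactivator of mitochondrial genes, had 4105 and 12332 counts and a log2 ratio of 1.89 [1.81 to 1.96]. The receptor partner Rxrg was at 1.07 [0.94 to 1.21] and the coactivator Ncoa1 at 1.05 [0.96 to 1.15], both with an interval that spans 2-fold and both under 1 when scaled to total counts, whereas Rxra was at -0.81 and Rxrb at -0.46. Ppargc1b stood at 0.65, the corepressor Ncor1 at 0.60 and Nr1h3 (LXR-alpha) at -0.23, and Hnf4a, a liver nuclear receptor, had 0 counts in both libraries.

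Of 18 other textbook PPAR-alpha targets examined, 6 passed the 2-fold rule upward and 1 downward, against 7.42% and 9.55% of all genes examined. Their median was 0.72, and the list shares genes with those of oxidation. The remaining targets examined were within 2-fold, and those named below are mainly the ones with the largest ratios. The 4 Cyp4a genes listed, fatty acid omega-hydroxylases, were low in wild-type. Cyp4a31 had 10 and 2 counts and was not examined. Cyp4a32 had 39 and 481 counts and a log2 ratio of 3.91 [3.26 to 4.67], and Cyp4a14 had 15 and 88 counts and a log2 ratio of 2.81 [1.72 to 4.196]. Cyp4a10 had 16 and 74 counts and was at 2.47 [1.38 to 3.82]. The sequences of these Cyp4a genes were not compared, and how reads matching several genes were counted is not given, so the split of reads among them is uncertain. Fgf21, a hormone, had 0 and 98 counts, at least 20.1-fold higher against the same limit of 6 counts, and the interval of its log2 ratio began at 3.98. Among 14 adipocyte markers 3 were at least 2-fold higher and 2 lower, with a median of 0.25. The higher ones were Elovl3 at 2.52, Dio2 at 2.28 and Prdm16 at 1.39. The lower ones were Ucp1 at -2.98 and Adrb3 at -1.08 [-1.17 to -0.99], and the remaining markers lay within 2-fold on both sides of 0.

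**Figure D5:**
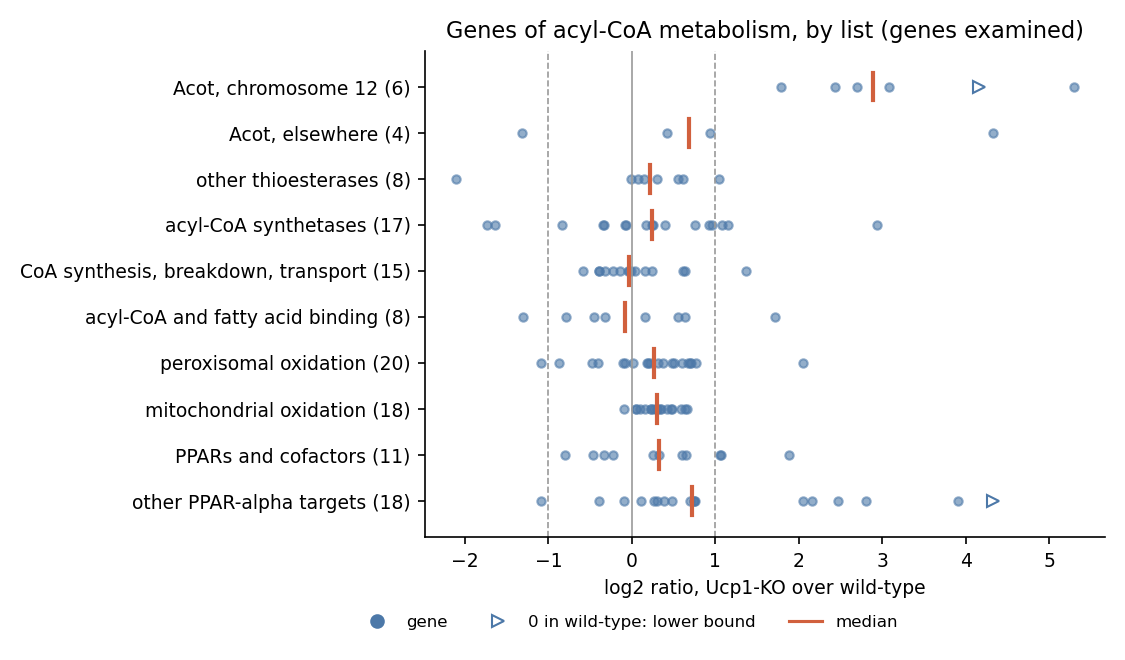
Log2 ratio of every examined gene in each list, as points with the list's median as a line and the number of genes in brackets. Open triangles are lower bounds against 6 wild-type counts for genes at 0 in wild-type, and dashed lines mark 2-fold. The Acot cluster has a median of 2.89, and the lists of peroxisomal and mitochondrial oxidation genes have medians of 0.26 and 0.30.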

How the data were processed

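Total RNA of iBAT was read as directional, poly-A-enriched libraries, 1 for each genotype and each from 3 pooled animals. The deposited values are whole-number counts per gene that the authors made with featureCounts, after Trim Galore and HISAT2 on mm39 per the labels. The version and annotation of featureCounts and its settings for strand and for reads matching several genes are not given in the sources used here. The tables hold no coordinates, so positions and lengths came from GENCODE mouse release 39 on GRCm39, joined by symbol.

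Counts were scaled by DESeq2 1.42.0 size factors (R 4.3.3), 1.11 for wild-type and 0.901 for Ucp1-KO. Depth was 52950913 and 53216727 counts. Ratios carried a pseudocount of 0.5, genes were examined from a mean normalised count of 10, and the size rule was 2-fold. Low counts were mostly even (70.7% and 73.4% of genes with 1 to 10 counts), so exact Poisson and conditional binomial (Clopper-Pearson) 95% intervals were computed on read pairs, taken as counts divided by 2, with scipy 1.17.1. A count of 0 was taken to allow 3 read pairs, or 6 counts. With 1 library per genotype no test was run and no p-value or SD exists. The scripts were tested on simulated data.

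Coding sequences were aligned with MAFFT 7.526. Alternatives were edgeR 4.0.16 TMM factors, total counts, size factors without muscle, mitochondrially encoded and sex-linked genes, a pseudocount of 5, no filter, a minimum of 50 and coding length. The members and lists were chosen with earlier results of these data known. Named were all members, the 5 protein-coding neighbours on each side of the cluster, the nearest neighbours of the other members, all other thioesterases and PPAR regulators, and up to 4 genes with the largest ratio of each other list. Adrb3 was named as well, as the other adipocyte marker that was at least 2-fold lower. Of 10 kidney markers 1 was examined, Cubn, with 24 and 51 counts. Of 10 liver markers 2 were examined, Apoa2 with 21 and 41 and Cyp2e1 with 1680 and 1730 counts.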

Additional observations from a re-analysis of the deposited data

How the results depend on the processing

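The counts of members beyond 2-fold stayed at 7 higher and 1 lower with TMM factors, total counts, a pseudocount of 5, no filter and the interval rule, and a minimum of 50 gave 6 and 1 because Acot3 was then not examined. Size factors without muscle, mitochondrially encoded and sex-linked genes gave 2.54 for the summed cluster and -0.71 for the summed members elsewhere. Scaling to total counts moved the median of all genes examined by -0.31. With it the log2 ratio of the summed cluster was 2.23 and that of the summed members elsewhere -1.01. Without its most abundant gene the cluster was at 2.94, and the members elsewhere turned to 0.93 without Acot11. Under total counts the medians of 5 lists changed sign: other thioesterases -0.086, synthetases -0.060, peroxisomal oxidation -0.044, mitochondrial oxidation -0.0055 and adipocyte markers -0.056. The median of the liver markers without a filter was -0.62, since genes of very few counts then entered. With a pseudocount of 5 the log2 ratio of Acot5 was 4.51. No member changed sign under the scalings and pseudocounts tried. No paired analysis was possible because a genotype is represented by 1 pool, which also means that leaving out a replicate could not be tried. Depth limits Acot3, Acot5 and Acot12, whose wild-type counts were 0, 6 and 20.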
